A study of Mus musculus with 74 samples.

Results

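Short fragments of *mt-TR*, the mitochondrial tRNA for arginine, that start in the D-arm were 15 to 29 nt long and started at position 23 or before, ahead of the anticodon stem. They were found by exact match of each counted sequence to mature *mt-TR*, and they comprised 118 of the 500 sequences and 1432 of the 5606 reads. Small RNA of the lungs of healthy adult mice of both sexes was sequenced without pretreatment, in 74 libraries. CC, HH and FF are the wild-type strains C57BL/6J (C), C3H/HeN (H) and FVB/NJ (F). HC, CH and CF are mitochondrial-nuclear exchange (MNX) strains made by pronuclear transfer, in which the former letter gives the nuclear genome and the latter the mtDNA. No group received a treatment, and each genotype had 6 libraries per sex, with 7 for CH females and HC females. The libraries belong to 3 batches by their labels, of which batch 1 consists of CH and HC females. The tissue is lung by the labels and the methods, but liver is named in the series design text. The counts cover *mt-TR* alone, so no tissue marker could be looked at.

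Transfer RNA folds into an acceptor stem, a D-arm, an anticodon arm and a T-arm, and mitochondria transcribe their own set of tRNAs from mtDNA. Nucleases cut tRNA into stable pieces called tRNA-derived fragments (tRFs), and pieces that lack both ends of the molecule are called internal tRFs. The D-arm is named for dihydrouridine, and in many mitochondrial tRNAs its loop is short.

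The gene, mt-Tr (ENSMUSG00000064361.1), occupies chrM:9808-9875 of GRCm38 (+ strand), and the CCA end is added after transcription. The mature molecules are shown because the 3 mtDNA types differ only in the runs of T and A inside the D-arm, which are in capitals (U is written as T).

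C mtDNA: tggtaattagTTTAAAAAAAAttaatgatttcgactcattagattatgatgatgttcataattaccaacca

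F mtDNA: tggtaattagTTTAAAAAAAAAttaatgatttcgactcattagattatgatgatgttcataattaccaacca

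H mtDNA: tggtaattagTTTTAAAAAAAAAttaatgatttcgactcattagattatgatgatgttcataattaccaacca

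The A run has 8 bases in C (positions 14 to 21) and 9 bases in F and H, and the T run has 3 bases in C and F and 4 bases in H. Positions below follow the C molecule, with F and H aligned to it at their 3′ ends, so that the same fragment has the same position in all types. It starts 1 base later on the molecule of F and 2 bases later on that of H. On C, the D stem pairs positions 10 to 13 with 19 to 22, and the anticodon stem pairs 24 to 28 with 36 to 40. The D loop (14 to 18) holds only A. Position 23 is the single base between the D stem and the anticodon stem, so the 275 reads that started there lie next to the D-arm rather than in it.

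The 10 D-arm fragments with the most reads are shown with the bases up to position 23 in capitals. They held 484 reads, 33.8% of the D-arm fragment reads, and all of them occur in the 3 mtDNA types.

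Positions 20 to 40: AATTaatgatttcgactcatt

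Positions 20 to 45: AATTaatgatttcgactcattagatt

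Positions 19 to 38: AAATTaatgatttcgactca

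Positions 20 to 38: AATTaatgatttcgactca

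Positions 23 to 43: Taatgatttcgactcattaga

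Positions 20 to 48: AATTaatgatttcgactcattagattatg

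Positions 18 to 37: AAAATTaatgatttcgactc

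Positions 23 to 48: Taatgatttcgactcattagattatg

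Positions 19 to 39: AAATTaatgatttcgactcat

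Positions 19 to 40: AAATTaatgatttcgactcatt

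These fragments form a ladder at the 5′ end, which lies in the last bases of the A run or in the TT after it, and they end in or just past the 3′ strand of the anticodon stem or in the T stem. The fragment at 20 to 40 (chrM:9827-9847) had 69 reads in 14 libraries, and 38 of them came from HC male replicate 3. The fragment at 20 to 45 had 60 reads in 11 libraries, 41 of them from the same library. The fragments at 19 to 38 and 20 to 38 were spread more widely, with 59 reads in 18 libraries and 50 reads in 20 libraries. That at 20 to 38 occurred in more libraries than any other D-arm fragment.

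The fragment at 20 to 40 was absent from most libraries of every mtDNA type. It had a median of 0 reads per library in each type and a highest count of 38 among the 25 C libraries, 2 among the 23 F libraries with reads and 14 among the 23 H libraries with reads. The fragment at 19 to 38 had a median of 0 as well, and a highest count of 14 in C, 6 in F and 8 in H. The groups overlapped for both.

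Libraries held 0 to 1280 reads on *mt-TR* (median 35), 3 had none, and the depth of the whole libraries is unknown. HC male replicate 3 stood apart with 461 of the 1432 D-arm fragment reads and 86 of the 118 sequences, and 6 sequences were seen in that library only. Values that rest on it are therefore given with and without it. The 95% Wilson intervals below cover counting error only.

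Each of the D-arm starts from 9 to 23 had reads, with most at 20, 23 and 19. Position 20 (chrM 9827), which lies in the A run, was the start of 355 reads (24.8% of the D-arm fragment reads) in 38 libraries, with a median of 1 read per library and a highest count of 157 in HC male replicate 3. Position 23 had 275 reads (19.2%) in 38 libraries, and position 19 had 242 reads (16.9%) in 41 libraries, of which 90 and 66 came from that library. Reads at 21, 22, 18, 17, 16 and 15 numbered 146, 94, 128, 83, 58 and 26. Starts before the D loop or at its first base were rare, with 9, 8, 4, 1, 2 and 1 reads at 14, 13, 12, 11, 10 and 9. Just outside the rule, position 24, the first base of the anticodon stem, had 772 reads from 14 sequences, against 275 reads from 13 sequences at position 23 just inside it. At 29 nt there were 78 reads, and 30 nt, the first length left out, gave 77 reads with the same starts.

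Most D-arm fragment reads started in the A run on the molecule of their own type, with 71.7% in C, 75.9% in F and 75.7% in H. Few reads held the whole run, 14 in C, 4 in F and 4 in H. By position on the C molecule, the first base was A in 73.2% of the reads, T in 26.7% and G in 0.140%, and no read began with C. The part of the molecule where a D-arm fragment can start holds no C in any type. The absence of C was therefore fixed by the rule, and the other shares restate the start positions. The last base was T in 42.7%, A in 29%, C in 15.3% and G in 13.0%.

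The start with the most reads was position 20 in H (110 reads, 24.5%) and position 19 in F (43 reads, 26.5%), while that of C depended on HC male replicate 3. With all C libraries position 20 led (224 reads, 27.3%, against 158 reads at 23). Without HC male replicate 3, positions 20 and 23 had 67 and 68 reads in C (18.6% and 18.9%), with 55 at 19. Without HH female replicate 5, positions 20 and 23 in H had 67 and 65 reads (22.5% and 21.8%). Neither C nor H had a single leading start beyond counting error once its deepest library was left out. With all H libraries the intervals of positions 20 and 23 overlapped too (20.7% to 28.7% and 16.4% to 23.8%). In F the interval of position 19 (20.3% to 33.8%) overlapped that of position 23 (28 reads, 12.2% to 23.8%), so F had no single leading start beyond counting error either. On the molecule of its own type, position 19 of F is base 20 and position 20 of H is base 22. Of the reads at 19 or 20, 35.1% were at 19 in C (30.2% to 40.2%), 67.2% in F (55% to 77.4%) and 41.5% in H (34.7% to 48.6%). Without HC male replicate 3 the share in C was 45.1% (36.5% to 53.9%). Both F genotypes were on the same side, with 62.8% in CF and 76.2% in FF, and reads at 19 came from 15 F libraries with at most 6 reads each. CH stood between, at 51.1%. In batch 2 alone the shares were 41.4% in C without that library (32.2% to 51.3%), 55.6% in F (39.6% to 70.5%) and 48.5% in H (39.1% to 58.1%), and these intervals overlapped. HH female replicate 5 was kept in for H in each of these shares. In batch 2 it held 38 of the 50 H reads at 19, and the highest H library held 43 of the 53 at 20. This comparison was chosen after the values were seen and was not tested.

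Although most reads started in the A run, few reached far enough into the runs to tell mtDNA types apart. Of the 118 sequences, 104 occur in all 3 mtDNA types and 14 do not, and the 14 held 16 reads, with 2 reads for 2 of them and 1 read for each of the other 12. Of these 14, 8 (8 reads) occur in C only and 6 (8 reads, 4 in F and 4 in H) in F and H only. Sequences that occur in H only numbered 0. The 10 named by rank are shown because their bases tell the mtDNA types apart, with bases up to position 23 in capitals.

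F and H, 12 to 35: TAAAAAAAAATTaatgatttcgac

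F and H, 13 to 38: AAAAAAAAATTaatgatttcgactca

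F and H, 11 to 38: TTAAAAAAAAATTaatgatttcgactca

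C, 9 to 33: AGTTTAAAAAAAATTaatgatttcg

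C, 10 to 36: GTTTAAAAAAAATTaatgatttcgact

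C, 10 to 37: GTTTAAAAAAAATTaatgatttcgactc

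C, 12 to 37: TTAAAAAAAATTaatgatttcgactc

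C, 12 to 38: TTAAAAAAAATTaatgatttcgactca

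C, 13 to 30: TAAAAAAAATTaatgatt

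C, 13 to 36: TAAAAAAAATTaatgatttcgact

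The fragment at 12 to 35 had 1 read in each of 2 H libraries and none in F, although its sequence is also part of F. The fragment at 13 to 38 had both of its reads in CF male replicate 2. The fragment at 9 to 33 (chrM:9816-9840), with 1 read in CC female replicate 5, started earliest of all. The fragment that ended latest, at 23 to 51 (Taatgatttcgactcattagattatgatg), had 20 reads in 8 libraries. At 1 or 2 reads per sequence, a difference between types was not detectable for fragments that span the runs.

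Ends were concentrated in the 3′ strand of the anticodon stem. Positions 36 to 40 were the end of 55.5% of the D-arm fragment reads (61.1% without HC male replicate 3), against 13.5% of the short reads that start at 24. The variable region (41 to 44) had 15.1% against 35.1%, the 5′ strand of the T stem (45 to 49) had 23.1% against 36.7%, and the T loop had 3.70% against 14.8%. The difference is partly fixed by the lengths allowed, since a read of 15 nt from position 24 cannot end before 38. The single ends with the most reads were 38 (228 reads, 15.9%), 37 (189 reads), 40 (177 reads), 45 (136 reads), 39 (125 reads) and 48 (120 reads). Ends inside the anticodon loop were 2.58% of the reads, and 117 of the 118 sequences (1431 reads) held the whole anticodon (TCG, 31 to 33). The target of the northern blot probe R3 (18 to 36) was held whole by 39 sequences with 295 reads.

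The earlier a read started, the nearer to the anticodon loop it ended. Of the 320 reads that started at 9 to 18, 78.8% ended at 35 to 38 and 5.31% after 40, whereas of the 743 reads that started at 19 to 21, 33.1% ended at 35 to 38 and 39.0% after 40. Of the 369 reads that started at 22 or 23, 6.78% ended at 35 to 38 and 79.4% after 40. The limits of 15 and 29 nt on the length take part in this order, and how much of it they set was not tested. At least 30 nt was reached by 15 of the 310 reads that started at 15 to 18 (4.84%, 2.95% to 7.83%). At 19 to 21 it was 164 of 907 reads (18.1%, 15.7% to 20.7%) and at 22 to 23 it was 120 of 489 reads (24.5%, 20.9% to 28.5%). Over all D-arm starts, 300 of 1732 reads (17.3%) were 30 nt or longer. The median length of the short reads was 21 nt, and 21 nt was the commonest length (230 reads, 16.1%).

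Among ends from 38 to 47, which reads of every start from 19 to 24 can reach at 15 to 29 nt, the preferred end changed with the start. Position 43 took 28.6% of the reads from start 22 (18.9% to 40.7%) and 26.2% of those from start 23 (20.2% to 33.2%). It took 7.49% from start 19 (4.51% to 12.2%), 3.82% from start 20 (2.09% to 6.88%) and 2.94% from start 21 (1.01% to 8.29%). From start 24 the share was 13.2% (10.7% to 16.1%). Ends at 40 went the other way less clearly, with 26.3% from start 20 (lower bound 21.4%) and 26.5% from start 21 (18.9% to 35.8%). The share was 11.1% from start 22 (5.49% to 21.2%) and 11.6% from start 23 (7.65% to 17.3%). It was 18.7% from start 19 (13.8% to 24.9%) and 16.9% from start 24 (14.2% to 20.1%). The interval of start 19 overlapped those of starts 22 and 23, and that of start 21 overlapped that of start 22. Only start 20 lay above both, and only just above start 22 (lower bound 21.4% against upper bound 21.2%), with HC male replicate 3 included. Without HC male replicate 3, position 43 took 34.8% and 24.6% from starts 22 and 23, and 9.16%, 2.88% and 1.61% from starts 19, 20 and 21. Position 40 then took 8.7% and 12.7% from starts 22 and 23, and 16.8%, 22.3% and 29% from starts 19, 20 and 21. For starts 20, 22 and 23 these were 31 of 139, 4 of 46 and 15 of 118 reads. No interval was computed without that library, so start 20 was not shown to lie above both there. The ends were picked after the values were seen, and the shares were not tested.

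End 38 took 47 of 162 D-arm fragment reads in F (29%, 22.6% to 36.4%), against 111 of 821 in C (13.5%, 11.4% to 16.0%) and 70 of 449 in H (15.6%, 12.5% to 19.2%). Without HC male replicate 3 it took 18.9% in C (15.2% to 23.3%), and without HH female replicate 5 it took 18.1% in H (14.2% to 22.9%), and both overlap the interval of F. The reads of F came from 13 libraries with at most 7 each. The share was 28.4% in CF and 30.4% in FF, and it was 25.8% in CH but 11.9% in HH, which has the same mtDNA as CH. In batch 2 the share was 27.9% in F (20.2% to 37.2%), 20.1% in C without HC male replicate 3 (15.7% to 25.4%) and 13.9% in H (9.91% to 19.1%). HH female replicate 5 was kept in for H in batch 2, where it held 16 of the 30 reads at end 38. It also held 151 of the 216 D-arm fragment reads of H in batch 2, so that H value rests largely on 1 library. This end, too, was picked after its values were seen, and the difference between types was not tested.

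The share of *mt-TR* reads that were D-arm fragments was 25.5% over all libraries (24.4% to 26.7%), against 21.5% for short reads starting at 25 to 31 and 13.8% for those starting at 24. Without HC male replicate 3 it was 22.4% (21.2% to 23.7%), against 21.9% (20.7% to 23.1%) and 11.4% (10.5% to 12.4%). The D-arm fragments were then above the latter group only, which is a single start, whereas theirs ran from 9 to 23. No D-arm start alone had as many reads as position 24 (355 at position 20 against 772, with all libraries). Over the 61 libraries with at least 10 reads the share of D-arm fragments ranged from 0% to 45.7% with a median of 20%. Per library, it did not differ by mtDNA type beyond the spread, at 20.4% ± 10.6 (SD, n = 21) with C, 21.2% ± 11.4 (SD, n = 20) with F and 20.7% ± 13.8 (SD, n = 20) with H. Pooled over libraries it was 26.7% with C (20.1% without HC male replicate 3), 18.8% with F and 26.8% with H, so the pooled value with C depended on 1 library.

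By genotype, the mean share was lowest in CH and highest in HH, which have the same mtDNA. It was 14.9% ± 12.0 (SD, n = 12) in CH, 17.7% ± 9.07 (SD, n = 12) in CF and 18.6% ± 8.86 (SD, n = 11) in HC. It was 22.3% ± 12.4 (SD, n = 10) in CC, 26.4% ± 13.2 (SD, n = 8) in FF and 29.3% ± 12.3 (SD, n = 8) in HH. Neighbours in this order differed by less than 1 SD, and the ranges of CH (0% to 43.5%) and HH (13.6% to 45.7%) overlapped. Within batch 2 the means were 15.9% ± 12.5 (SD, n = 4) in CH and 24.5% ± 12.3 (SD, n = 5) in HH, and within batch 3 they were 15.9% ± 16.2 (SD, n = 5) and 37.4% ± 8.38 (SD, n = 3). HH female replicate 5 held 151 of the 329 HH reads, and the mean without it was 27.1% ± 11.3 (SD, n = 7).

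Females had a mean of 19.9% ± 11.4 (SD, n = 33) and males 21.7% ± 12.5 (SD, n = 28), a difference smaller than the spread. The 6 libraries of batch 1 were close together at 13.8% ± 2.90 (SD, n = 6), while batch 2 had 20.6% ± 11.0 (SD, n = 39) and batch 3 had 23.6% ± 14.7 (SD, n = 16). Each library of batch 1 held 100 to 238 reads on *mt-TR*. The part of batch in the differences between genotypes was not tested for these shares.

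Whether any D-arm start changed in its share of the *mt-TR* reads was tested with edgeR's quasi-likelihood test over 53 combinations of a start and a length class, of which 9 are D-arm starts (15 to 23), with batch as a term and a Benjamini-Hochberg adjusted p under 0.05. For H against C mtDNA, 0 of the 9 D-arm starts were called, against 0% of all starts tested, with 0 D-arm starts at an unadjusted p under 0.05. For F against C mtDNA the count was also 0 of 9, against 0% of all, with 0 at an unadjusted p under 0.05. For H against C nuclear genome it was 0 of 9, against 1.89% of all, with 1 at an unadjusted p under 0.05. For F against C nuclear genome it was 0 of 9, against 0% of all, with 0 at an unadjusted p under 0.05. For male against female it was 0 of 9, against 1.89% of all, with 1 at an unadjusted p under 0.05. For the interaction of mtDNA and nuclear genome it was 0 of 9, against 5.66% of all, with 1 at an unadjusted p under 0.05. DESeq2 called 0 D-arm starts in each comparison too, with 1 at an unadjusted p under 0.05 for H against C nuclear genome, 1 for the interaction and 0 for the others. For H against C nuclear genome that start was position 20 with DESeq2 but position 15 with edgeR, and for the interaction it was position 23 with both.

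Position 15, the second base of the D loop, came nearest to a call. Its log2 difference between males and females was -1.97 (edgeR, adjusted p = 0.0919), and that between H and C nuclear genomes was -1.56 (edgeR, adjusted p = 0.217), from 26 reads in 16 libraries with at most 3 each. For neither did the edgeR fit give a usable SE. DESeq2 gave smaller log2 differences at position 15, -0.63 (SE 1.64) for sex and -0.40 (SE 1.87) for nuclear genome. Position 23 had an interaction of -3.12 on the log2 scale (SE 1.45, edgeR adjusted p = 0.180). Position 20, the leading start, had log2 differences of 0.35 (SE 0.60) for H against C mtDNA, -0.78 (SE 0.82) for F against C mtDNA and 0.69 (SE 0.57) for H against C nuclear genome. Position 19 had -0.07 (SE 0.63), 0.05 (SE 0.80) and -0.21 (SE 0.59) in the same order. The adjusted p of these differences from edgeR was 0.758 or more, and none was detectable at this depth.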

How the data were processed

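Raw counts were deposited by the authors, with a row for every distinct sequence and a column for every library. According to the methods, reads were trimmed with cutadapt, mapped perfectly with Bowtie to the *mt-TR* sequence matching the mouse's mtDNA, and dropped if they mapped elsewhere in mm10. Which of these steps, including deduplication by molecular identifiers, lung reads went through is not given in the sources used here, and 2 D-arm fragments (3 reads) are 15 nt long, below the minimum of 16 in the methods. The submitters' processing notes name FastQC 0.12.1, UMI-tools 1.1.6, cutadapt 5.0, BWA 0.7.18 and Bowtie 1.3.1. The extract protocol mentions pooling of intact RNA, so whether a library is 1 mouse is unclear and p-values measure the spread between libraries.

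Groups came from the labels. The mature C sequence was read from GRCm38 with the GENCODE M21 annotation and CCA added. Those of F and H were made by lengthening the runs, and all 180 listed liver sequences of the supplement lie in the resulting molecules. Every read matched its own mtDNA type, and no libraries with reads had identical counts. Reads were summed by start and length class (15 to 29 nt, 30 nt or more), starts with at least 10 reads were kept, and the library size was the reads on *mt-TR*. The 12 groups of genotype and sex and the batch were fitted in edgeR 4.0.16 (R 4.3.3) to 71 libraries with reads. Alternatives were DESeq2 1.42.0, TMM factors, other filters and terms, batch 2 alone, single sequences, starts counted from the 5′ end, a replicate block and leaving out libraries. Other values used Python 3.11.15, numpy 2.4.6, pandas 2.3.3 and scipy 1.17.1.

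Named fragments are the 10 with the most reads, the 10 with the most reads among those not found in all mtDNA types, those that start earliest and end latest, and the leading one of any called D-arm start (none was called). The members, the lists and the tests were chosen with earlier results of these data known.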

Additional observations from a re-analysis of the deposited data

Results flagged for a closer look

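Libraries far from the rest of their group were looked for in 23 cases, each group with each of 2 measures where it had enough libraries (share of D-arm fragments in libraries with at least 10 reads, and number of D-arm fragment reads). For normally distributed values chance flags about 1 in 20, or 1.15 here, and 2 were found. The numbers of D-arm fragment reads were far from such values (median 6.5 per library, highest 461), and shares rested on as few as 10 reads. The number expected by chance is therefore only nominal. HC male replicate 3 had 461 D-arm fragment reads, and the library after it in that group had 30. CH female replicate 4 had a share of 43.5% (10 of 23 reads, from 3 sequences), against 14.8% in the next CH female library.

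The effect of mtDNA (H against C) differed between the nuclear genomes at 3 starts of short reads, none of them in the D-arm, by a test of the interaction (the log2 effect with C nuclear genome minus that with H nuclear genome). At start 36 the interaction was -5.50 on the log2 scale (edgeR, adjusted p = 0.0147), with 14 of 652 reads in CC, 4 of 809 in CH, 17 of 2420 in HC and 12 of 864 in HH. At start 45 it was 5.21 (edgeR, adjusted p = 0.0147), with 1, 20, 20 and 2 reads in the same order. At start 46 it was 5.13 (edgeR, adjusted p = 0.0147), with 12, 66, 39 and 6 reads. None of these 3 estimates had a usable SE, so their size is uncertain. Without a batch term, starts 45 and 46 were called but start 36 was not. DESeq2 and batch 2 alone called 0 starts for the interaction.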

How the results depend on the processing

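The pooled share of D-arm fragments ran from 20.8% to 30.9% over its alternatives, from 20.1% to 32.2% for C, from 15.6% to 23.1% for F and from 20.4% to 33.6% for H. Each lay within 1 SD between libraries (10.6 to 13.8 percentage points) of the value reported, a wide margin for pooled shares. Of 60 alternatives to the number of D-arm starts called, 58 gave 0 as before. The exceptions counted starts from the 5′ end, which by construction moves the same fragment 1 base in F and 2 in H: 2 D-arm starts (19 of all starts) were then called for H against C mtDNA and 1 (11 of all) for F against C mtDNA. Over all starts, H against C nuclear genome went from 1 call to 2 without a batch term, 3 in batch 2 alone and 0 with starts from the 5′ end. An equal count did not always mean the same start. The main call for H against C nuclear genome was start 25 in the longer length class. DESeq2 called start 37 of the short reads in its place, and batch 2 alone called starts 37, 42 and 54 of the short reads. F against C nuclear genome went from 0 to 2 with DESeq2, 1 in batch 2 alone and 4 with single sequences. Male against female went from 1 to 0 with DESeq2, without a batch term, with single sequences, with starts from the 5′ end and without HC male replicate 3. It was 1 without HH female replicate 5, which was left out after the data had been seen. Batch 2 alone also gave 1 call for sex, but at start 50 (log2 difference -2.57) rather than at start 36 (2.44 in the main fit). The interaction went from 3 to 0 with DESeq2, in batch 2 alone and with single sequences. It gave 2 calls with starts from the 5′ end and 4 without HH female replicate 5. It stayed at 3 without a batch term, but with start 49 in place of start 36. The cause was not tested.

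With the replicate number as a replicate block the calls were 0, 0, 1, 0, 1 and 3 in the order of the report, as without it. Same-numbered libraries of different groups had a mean correlation of deviations of -0.00714 over 274 pairs (-0.562 to 0.486). Libraries with other numbers had 0.00185 over 1424 pairs. No pairing by number was seen, but so few reads per library cannot show that nothing else is shared. filterByExpr kept 2 features and gave no values. TMM factors ran from 0.313 to 28.0 and the common dispersion was 1.16. A lack of calls is no evidence that groups are alike, and what part depth has in it was not tested.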
